A study of Mus musculus with 6 samples.

Results

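Transcript levels of the fibroblast growth factor (FGF) receptor genes and of the Sprouty family genes that limit their signal were examined in newborn mouse lenses. The 10 genes were chosen by name, with earlier results of these data known. They were the receptor genes Fgfr1, Fgfr2, Fgfr3 and Fgfrl1, the docking protein gene Frs2, and the inhibitor genes Spry1, Spry2, Spry4, Spred1 and Spred2. All 10 were found by symbol among the 13931 genes of the expression table. RNA-sequencing had been carried out on whole lenses collected at birth (P0) from mice on a mixed C57BL/6J and FVB background, with 3 control and 3 Celf1cKO libraries, each from a pool of lenses. Celf1 encodes an RNA-binding protein. The Celf1cKO mice carried a Celf1lacZKI allele, which is a germline knockout allele, a Celf1flox allele and the Pax6GFPCre transgene, which expresses Cre recombinase from the lens placode onward. By their labels the control mice were Celf1lacZKI/+, so that both groups would share the germline knockout allele, whereas by the general statement in the methods of the study controls carried Celf1flox and no Cre. Which genotype the control lenses had is not settled, and every difference below is against them.

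FGF receptors are tyrosine kinases of the cell surface that bind FGF ligands together with heparan sulfate. The activated receptor phosphorylates the docking protein Frs2, which recruits Grb2 and Sos1 and so activates the Ras and ERK pathway. Sprouty and Spred proteins dampen the Ras and ERK pathway, and several of their genes are themselves induced by it, which closes a feedback loop. In the lens, FGF signalling is known for driving epithelial cells at the equator to elongate and differentiate into fiber cells.

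Levels are given as log2 CPM, the log2 of the reads of a gene scaled to a common library size, as the authors normalized them. A gene was called different when the p-value of limma, adjusted over all genes of the table, was under 0.05, the log2 fold-change was beyond 0.58 in either direction and the average log2 CPM was above 1. The libraries held between 40694454 and 44387151 reads on genes. Crystallin genes took 45.8% to 46.9% of the reads in control and 34.7% to 38.5% in Celf1cKO libraries. Celf1 itself stood at 9.95, 9.94 and 9.34 log2 CPM in the controls, in the order of their numbers here and throughout, and at 8.93, 7.66 and 7.83 in the Celf1cKO libraries, a fall of the mean from 9.74 ± 0.35 to 8.14 ± 0.69 (SD, n = 3 each, adjusted p = 0.0269, limma). The fall of Celf1 is in the direction of the labels, and its transcripts were still counted in every Celf1cKO library. Cre removes only an exon of the Celf1flox allele, so these gene-level counts do not separate transcripts that lack it from intact ones. Of 10 markers of the lens 9 were in the table, all but Lim2, and their summed level was 209000 to 236000 CPM in control and 162000 to 173000 CPM in Celf1cKO libraries, with Bfsp1 and Gja3 called lower. Bfsp2 stood at 2570, 3012 and 386.6 CPM in control and at 1987, 1478 and 1544 CPM in Celf1cKO libraries. What set control library 3 apart for Bfsp2 was not tested.

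Fgfr2, Fgfrl1 and Fgfr3 fell in Celf1cKO lenses, Fgfr1 and Frs2 were not called, and of the 5 inhibitor genes Spry4 alone was called, as higher. Fgfr2 was 2.29-fold lower, Fgfrl1 2.19-fold lower and Fgfr3 1.58-fold lower, and Spry4 was 1.99-fold higher. Thus 4 of the 10 genes were called, 3 lower and 1 higher, beside 7.39% of all genes called in either direction, 2.63% called lower and 4.77% called higher. These shares are over all 13931 genes, of which only 10640 passed the expression threshold, whereas all 10 genes did. The 6 genes that were not called differed by 0.081 to 0.249 on the log2 scale in either direction, with adjusted p from 0.29 to 0.783. The groups did not overlap for 5 of the 10 genes, beside 36.5% of all genes. The median log2 fold-change of the 10 genes was -0.0312, close to the -0.0352 of all genes in the table. Over all genes 664 were called higher and 366 lower, so that 64.5% of calls were higher, and with each library scaled by its total reads 1663 were higher and 204 lower (89.1%). A fit that pairs libraries by their replicate numbers (the replicate block) called 3 of the 10 beside 9.18% of all genes.

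**Figure D1:**
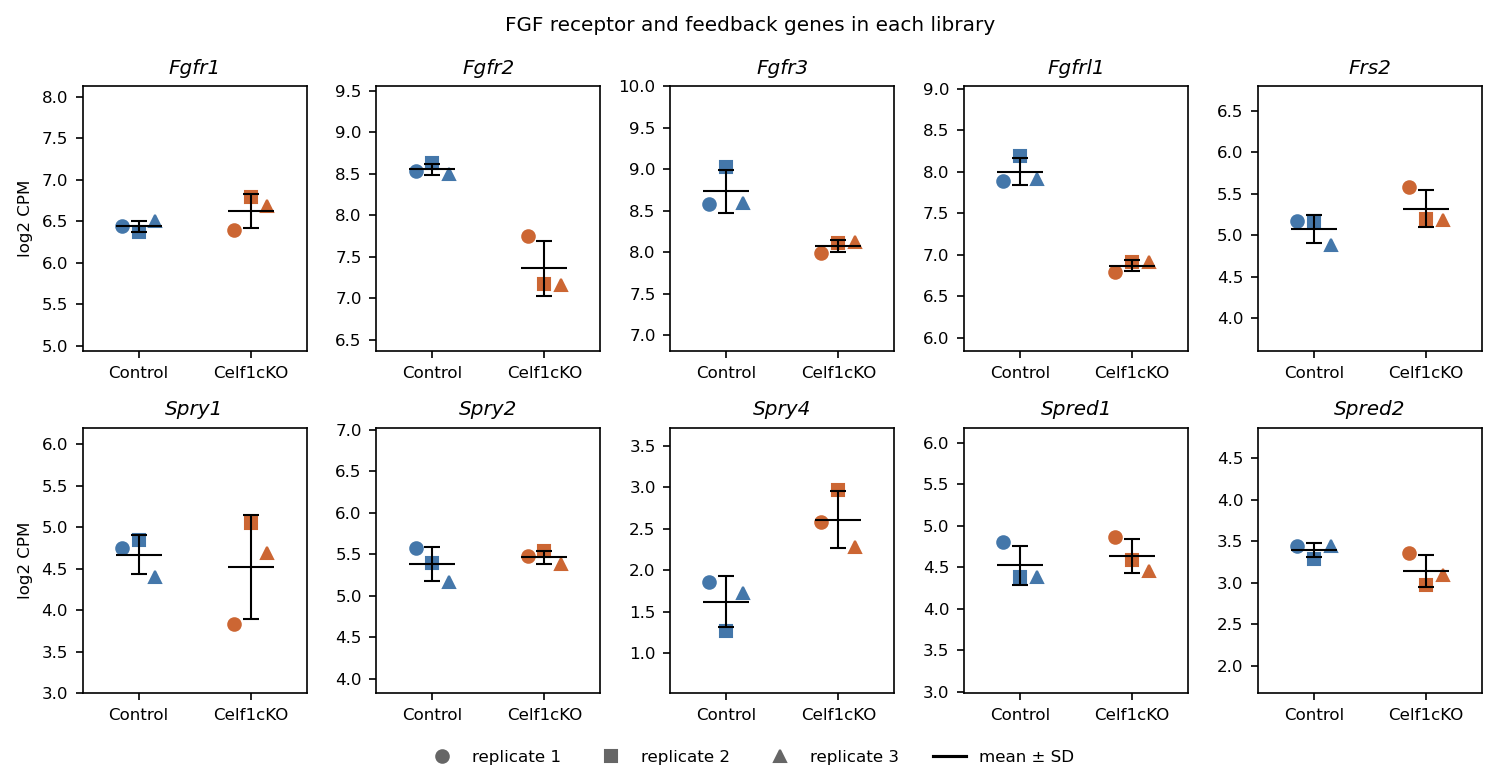
Log2 CPM of each of the 10 genes (vertical axis) in each control and Celf1cKO library, with 1 point per library a line at the mean of each group and error bars of 1 SD (n = 3). The Celf1cKO points of Fgfr2, Fgfr3 and Fgfrl1 lie below all control points, with Fgfr2 at 7.16 to 7.75 against 8.50 to 8.63, and those of Spry4 lie above, at 2.29 to 2.97 against 1.27 to 1.86.

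Fgfr2 (ENSMUSG00000030849, chr7:130162451-133123350, minus strand, GRCm38) encodes a receptor that, depending on the splice form, binds FGFs from mesenchyme or a wider range of FGFs. Control libraries 1, 2 and 3 held it at 8.54, 8.63 and 8.50 log2 CPM, and the Celf1cKO libraries at 7.75, 7.18 and 7.16. The groups did not overlap, and Celf1cKO library 1 lay nearest to the controls, as it did for Celf1 itself but not for Fgfrl1 and Fgfr3. The mean fell from 8.56 ± 0.07 to 7.36 ± 0.33 (SD, n = 3 each), a log2 fold-change of -1.19 (SE 0.159, 95% interval -1.57 to -0.821, adjusted p = 0.0105, limma). Between 14244 and 14718 reads stood behind each control value and between 7038 and 9232 behind each Celf1cKO value. The call was lost without control library 2 (-1.16, adjusted p = 0.0548) and without Celf1cKO library 3 (-1.09, adjusted p = 0.0654), and in each of these fits limma called 1 gene in the whole table. Fgfr2 shares 314 exon bases with Ctbp2 on the same strand, and gene-level values do not separate its splice forms.

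Fgfrl1 (ENSMUSG00000008090, chr5:108692382-108706924, plus strand) encodes an FGF receptor-like protein that binds FGF ligands but lacks the intracellular kinase domain. It stood at 7.89, 8.19 and 7.92 log2 CPM in control and at 6.79, 6.91 and 6.91 in Celf1cKO libraries. All Celf1cKO values lay below all control values, and they spread over a narrower range than the controls. The mean fell from 8.0 ± 0.16 to 6.87 ± 0.07 (SD, n = 3 each), by 1.13 on the log2 scale (SE 0.101, 95% interval -1.36 to -0.892, adjusted p = 0.00855, limma), with 9106 to 10826 reads in control and 4756 to 5939 in Celf1cKO libraries. The adjusted p rose to 0.0512 without control library 2 and to 0.0607 without Celf1cKO library 3.

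Fgfr3 (ENSMUSG00000054252, chr5:33721674-33737068, plus strand) encodes the receptor known from its role in restraining bone growth. Control libraries held it at 8.58, 9.03 and 8.59 log2 CPM and Celf1cKO libraries at 7.98, 8.11 and 8.12. The groups were separate, and control library 2 stood above the other controls. The log2 fold-change was -0.66 (SE 0.133, 95% interval -0.974 to -0.352, adjusted p = 0.0237, limma), from a mean of 8.73 ± 0.26 to 8.07 ± 0.08 (SD, n = 3 each), with 10877 to 19439 reads per library. The adjusted p was between 0.0519 and 0.0955 without control library 2, control library 3, Celf1cKO library 2 or Celf1cKO library 3, and 0.0693 without the trend of the variance with expression. With each library scaled by its total reads the fold-change was -0.44 with an adjusted p of 0.036, short of the fold-change threshold.

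Fgfr1 (ENSMUSG00000031565, chr8:25513654-25575718, plus strand), which encodes a receptor used widely in the embryo, differed from these 3 genes in its values. It stood at 6.44, 6.37 and 6.50 log2 CPM in control and at 6.39, 6.79 and 6.68 in Celf1cKO libraries. Celf1cKO library 1 lay within the control range and the other Celf1cKO libraries above it. The means were 6.44 ± 0.06 and 6.62 ± 0.21 (SD, n = 3 each), and the difference of 0.19 (SE 0.116, 95% interval -0.0835 to 0.457) did not pass the test (adjusted p = 0.315, limma). The interval leaves room for a rise of up to 0.457 and for a fall of up to 0.0835 on the log2 scale.

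The sequences around a RefSeq start of each of the 3 receptor genes that fell are shown because these genes moved in the same direction. Each is the window of 300 bases from 250 before to 50 after the gene start in RefSeq on GRCm38.p6, read on the strand of the gene. For Fgfr2 and Fgfrl1 the whole window lies inside the span given above, which comes from GENCODE M21. These spans extend upstream to 133123350 for Fgfr2 and to 108692382 for Fgfrl1. Capitals mark the GC box GGGCGG, bound by Sp1 family factors, and the core CGGAAG of sites for ETS factors, which ERK signalling activates, on either strand.
Fgfr2, chr7:130266759-130267058, minus strand: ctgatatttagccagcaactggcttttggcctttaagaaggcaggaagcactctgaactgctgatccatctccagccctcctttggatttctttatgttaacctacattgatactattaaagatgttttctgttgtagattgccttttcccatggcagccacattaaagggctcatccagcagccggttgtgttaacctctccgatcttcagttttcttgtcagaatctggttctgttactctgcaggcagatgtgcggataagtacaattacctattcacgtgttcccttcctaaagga
Fgfr3, chr5:33721474-33721773, plus strand: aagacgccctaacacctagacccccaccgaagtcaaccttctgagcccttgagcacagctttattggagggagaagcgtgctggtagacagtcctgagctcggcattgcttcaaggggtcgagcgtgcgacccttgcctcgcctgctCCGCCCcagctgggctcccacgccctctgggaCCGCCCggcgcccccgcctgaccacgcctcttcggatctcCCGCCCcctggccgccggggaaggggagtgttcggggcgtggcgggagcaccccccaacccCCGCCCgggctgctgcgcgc
Fgfrl1, chr5:108693979-108694278, plus strand: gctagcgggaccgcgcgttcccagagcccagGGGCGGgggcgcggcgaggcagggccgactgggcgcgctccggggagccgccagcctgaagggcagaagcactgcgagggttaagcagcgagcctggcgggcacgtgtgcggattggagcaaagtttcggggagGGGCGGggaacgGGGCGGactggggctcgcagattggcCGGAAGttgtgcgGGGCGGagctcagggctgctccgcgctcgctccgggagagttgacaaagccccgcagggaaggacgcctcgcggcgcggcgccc
The Fgfr3 and Fgfrl1 windows each held 4 GC boxes and had a GC content of 69.7% and 73.7%. A further RefSeq start of Fgfr3, at chr5:33722056-33722355, had 2 GC boxes, which overlap each other by 1 base. The Fgfr2 window held neither motif and had a GC content of 43.7%, below the median of 52.7% over all 32851 windows of this length. The Fgfrl1 window also held 1 ETS core. The GC box was present in 35.7% and the ETS core in 16.9% of all windows. Of the genes not called, Frs2, Spry1, Spred1 and Spred2 held 2, 1, 3 and 1 GC boxes. Frs2, Spred1 and Spred2 also held 1, 2 and 1 ETS cores. Spry2 held neither motif, and Spry1 held no ETS core. The E-box CACGTG, present in 7.15% of windows, was found once each in the Fgfr2 and Fgfrl1 windows. RefSeq windows were matched for 8 of the 10 genes, all but Fgfr1 and Spry4. None of the 8 held the AP-1 site TGACTCA (5.2% of all windows), the half-site TGCTGAC of the MAF factors (4.67%) or the TATA box TATAAA (13.6%), on either strand. These letter matches are descriptions and not shown to be binding sites.

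CELF1 protein is known to bind GU-rich elements in the 3′ untranslated regions (UTRs) of mRNAs, so the letters TGTTTGT, 7 bases from the core of such elements, were searched on the sense strand of the longest 3′ UTR of each gene in GENCODE M21. Of 13111 genes with a 3′ UTR, 30% held at least 1 match. The sites of Fgfr1, Fgfr3 and Spry2 are shown with 10 bases on each side of a match, which is in capitals. For Fgfr1 the capitals mark the first of its 2 matches, and the second starts 4 bases further on and runs into the lower case letters.
Fgfr1, chr8:25575365-25575391, plus strand: ttttgtttttTGTTTGTttgtttggtt
Fgfr3, chr5:33736276-33736302, plus strand: acggcagtttTGTTTGTactggacctg
Spry2, chr14:105892446-105892472, minus strand: aagttgttctTGTTTGTgaatagccca
Fgfr1 held 2 overlapping matches in 1797 bases, and Frs2 held 2 in 4502 bases. Fgfr3, Spry2, Spry4, Spred1 and Spred2 held 1 match each, and Fgfr2, Fgfrl1 and Spry1 held none. Among genes with a 3′ UTR within 25% of the same length, 29.8% held a match for Fgfr2 and Fgfr3, 13.3% for Fgfrl1, 34.7% for Fgfr1 and 65.3% for Frs2. Of the 3 receptor genes that fell, Fgfr3 thus carried the motif and Fgfr2 and Fgfrl1 did not. A match says only that the letters are present, and binding was not measured.

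Frs2 (ENSMUSG00000020170, chr10:117069427-117148534, minus strand), the docking protein that links the receptors to Grb2, stood at 5.17, 5.17 and 4.88 log2 CPM in control and at 5.58, 5.19 and 5.18 in Celf1cKO libraries. All Celf1cKO values lay above all control values. The difference of 0.24 (SE 0.143, 95% interval -0.0907 to 0.58) did not pass the test (adjusted p = 0.290, limma).

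Among the Sprouty genes, whose products block signalling between receptor and ERK, Spry2 and Spry1 had the higher levels. Spry2 (ENSMUSG00000022114, chr14:105891947-105896819, minus strand) stood at 5.58, 5.40 and 5.17 log2 CPM in control and at 5.48, 5.54 and 5.38 in Celf1cKO libraries, and the difference of 0.08 (SE 0.121, 95% interval -0.202 to 0.364) did not pass the test (adjusted p = 0.692, limma). All Celf1cKO values of Spry2 lay within the control range. Spry1 (ENSMUSG00000037211, chr3:37639947-37644598, plus strand) stood at 4.75, 4.85 and 4.41 in control and at 3.83, 5.05 and 4.69 in Celf1cKO libraries. Here the Celf1cKO libraries included both the lowest and the highest value, and the difference of -0.14 (SE 0.298, adjusted p = 0.783, limma) had an interval from -0.841 to 0.554, the widest among the genes that were not called. That interval includes a fall of the size seen for Fgfr3.

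Spry4 (ENSMUSG00000024427, chr18:38586247-38601415, minus strand), a Sprouty gene known to be induced by ERK signalling, was the only one of the 10 called higher. Its log2 CPM was 1.86, 1.27 and 1.73 in control and 2.58, 2.97 and 2.29 in Celf1cKO libraries, from 137, 88 and 129 reads in control and 255, 379 and 238 in Celf1cKO libraries. The groups did not overlap, at the lowest level of the 10 genes. The mean rose from 1.62 ± 0.31 to 2.61 ± 0.34 (SD, n = 3 each), by 0.99 (SE 0.252, 95% interval 0.402 to 1.58, adjusted p = 0.0464, limma). The call was lost with the replicate block (adjusted p = 0.0563) and in 10 of 15 alternatives in all, among them each of the 6 fits without 1 library (log2 fold-change 0.81 to 1.16, adjusted p = 0.0536 to 0.136).

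The Spred genes encode Sprouty-related proteins that recruit neurofibromin to the membrane and so restrain Ras. Spred1 (ENSMUSG00000027351, chr2:117121374-117182279, plus strand) stood at 4.80, 4.38 and 4.39 log2 CPM in control and at 4.87, 4.58 and 4.46 in Celf1cKO libraries, a difference of 0.11 (SE 0.162, 95% interval -0.265 to 0.494, adjusted p = 0.674, limma). Spred2 (ENSMUSG00000045671, chr11:19924375-20024026, plus strand) stood at 3.44, 3.29 and 3.44 in control and at 3.35, 2.98 and 3.09 in Celf1cKO libraries, a difference of -0.25 (SE 0.149, 95% interval -0.598 to 0.101, adjusted p = 0.300, limma). The groups overlapped for both genes, and neither passed the test.

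**Figure D2:**
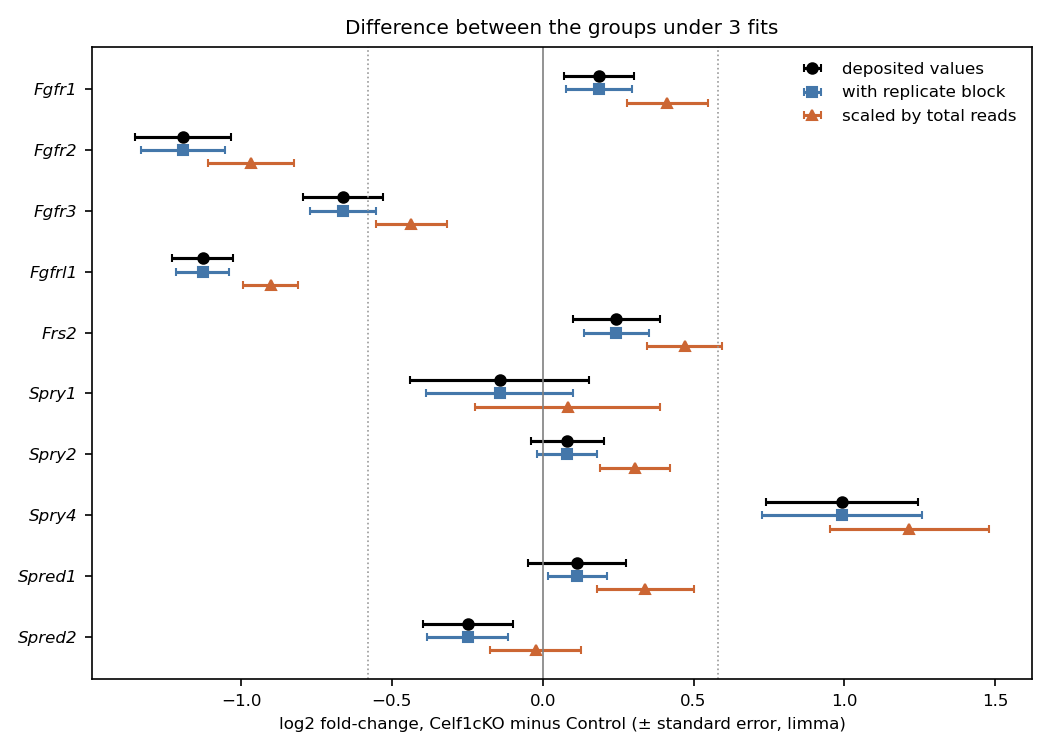
Log2 fold-change of each of the 10 genes, Celf1cKO minus control (horizontal axis), with its standard error, in the main limma fit, with the replicate block and with total-count scaling. Fgfr2 at -1.19, Fgfrl1 at -1.13 and Fgfr3 at -0.66 lie to the left and Spry4 at 0.99 to the right in the main fit, and total-count scaling moves all points to the right. Dotted lines mark the fold-change threshold of 0.58.

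To compare levels between genes, CPM was divided by the length of the union of annotated exons. In control lenses Fgfrl1 had the highest level, 92.4 ± 10.7 CPM per kilobase (SD, n = 3), followed by Fgfr3 at 60.2 ± 11.2, Fgfr2 at 36.5 ± 1.66 and Spry2 at 20.1 ± 2.81. By this length each of these 4 was separated from the next by more than its spread. By the length of the longest transcript Fgfrl1 stood at 110.4 ± 12.8, Fgfr3 at 101.4 ± 18.9 and Fgfr2 at 85.1 ± 3.87, so that Fgfrl1 and Fgfr3 then lay within their spread of each other and Fgfr3 and Fgfr2 likewise. Spry1 at 8.81 ± 1.37 and Fgfr1 at 8.77 ± 0.375 did not differ beyond their spread, and neither did Frs2 at 3.87 ± 0.43 and Spred1 at 3.41 ± 0.594. Spred2 at 2.26 ± 0.133 and Spry4 at 0.646 ± 0.132 were lowest.

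In Celf1cKO lenses the order began with Fgfrl1 at 42.1 ± 1.99 and Fgfr3 at 37.6 ± 1.94 CPM per kilobase (SD, n = 3). Spry2, at 21.2 ± 1.16, came before Fgfr2, at 16.2 ± 3.96, which in control lenses stood above it, with overlapping values (Spry2 19.93 to 22.23, Fgfr2 13.87 to 20.81). Fgfr1 at 10.04 ± 1.40 and Spry1 at 8.39 ± 3.29 again lay within their spread of each other. Frs2, Spred1, Spred2 and Spry4 kept the last 4 places, at 4.60 ± 0.747, 3.69 ± 0.551, 1.91 ± 0.263 and 1.30 ± 0.316. With the length of the longest transcript in place of the exon union, 8 of 10 ranks were kept in control and 6 of 10 in Celf1cKO lenses, where Fgfr3 then stood above Fgfrl1 and Fgfr2 above Spry2. The order of these close neighbours therefore rests on the length used.

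**Figure D3:**
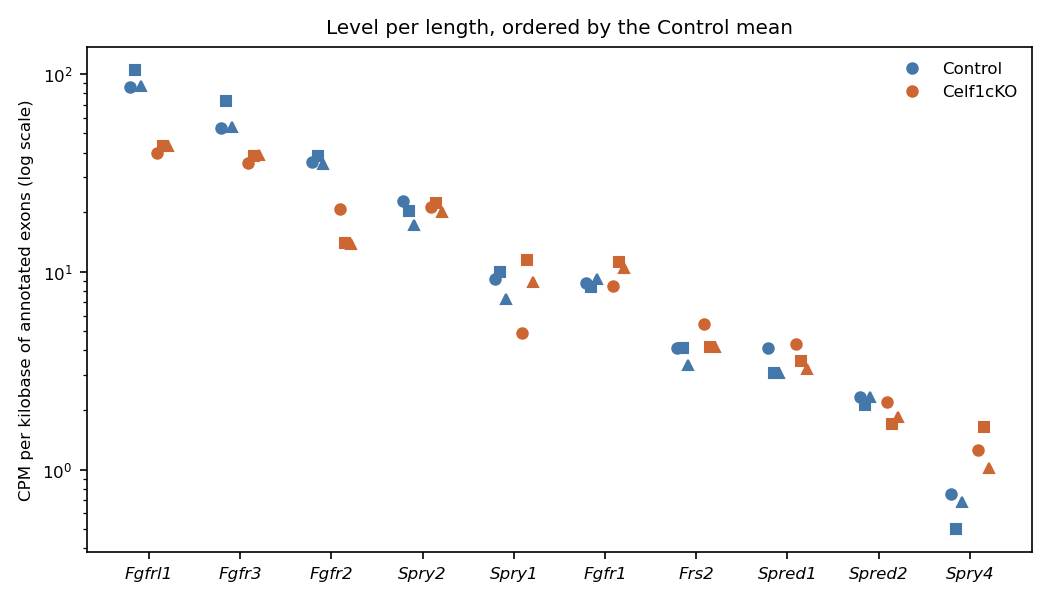
CPM per kilobase of annotated exons (vertical axis, log scale) of the 10 genes, ordered by the control mean, with 1 point per library, coloured by group and shaped by replicate number. Fgfrl1 and Fgfr3 lead in both groups, and Fgfr2 falls from 36.5 to 16.2 on average while Spry2 stands at 20.1 and 21.2.

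By exon-union length, the summed level of the 4 receptor genes was 183.6, 224.5 and 185.3 CPM per kilobase in control libraries and 104.5, 107 and 106.5 in Celf1cKO libraries. Within this sum Fgfr1 took 4.78%, 3.74% and 4.93% in control and 8.13%, 10.5% and 9.77% in Celf1cKO libraries, so that its share was higher in all Celf1cKO libraries at a level that was not called different. The share of Fgfrl1 was 46.7% ± 0.224 in control and 39.7% ± 1.41 in Celf1cKO libraries (SD, n = 3 each), and that of Fgfr3 was 30.3% ± 1.99 and 35.5% ± 1.42. Fgfr2 took 19.6%, 17.1% and 19% in control and 19.9%, 13.1% and 13% in Celf1cKO libraries, which overlapped. The shares depend on the length used. By the longest transcript, an alternative chosen after seeing the data, Fgfrl1 took 35.1% in control and 29.4% in Celf1cKO libraries, Fgfr3 32.1% and 37%, Fgfr2 27.2% and 22.1%, and Fgfr1 5.53% and 11.5%, so that the direction of each difference was the same by both lengths.

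Ratios between the receptor genes within a library do not depend on how the libraries were scaled. The log2 ratio of Fgfr1 to Fgfr2 was -2.10, -2.26 and -2.01 in control and -1.36, -0.39 and -0.48 in Celf1cKO libraries, a difference of 1.38. The ratio of Fgfr1 to Fgfrl1 differed by 1.31 and that of Fgfr1 to Fgfr3 by 0.85, and neither overlapped between the groups. The ratio of Fgfr3 to Fgfrl1 was 0.68, 0.84 and 0.67 in control and 1.19, 1.20 and 1.21 in Celf1cKO libraries. For each of these 4 pairs the two-sided exact permutation p was 0.1, the smallest that 3 libraries against 3 allow, and 0.15 after adjustment over the 6 pairs. The ratio of Fgfr2 to Fgfr3 differed by -0.53 (exact permutation p = 0.2, adjusted 0.24) and that of Fgfr2 to Fgfrl1 by -0.07 (exact permutation p = 0.8, adjusted 0.8), and both overlapped between the groups. Paired by replicate number, a comparison added after seeing the data, the ratio of Fgfr2 to Fgfr3 was lower in Celf1cKO in 3 of 3 pairs, by -0.20, -0.53 and -0.87, whereas that of Fgfr2 to Fgfrl1 was lower in 2 of 3. The exact permutation test cannot give an adjusted p under 0.05 with 3 libraries a group, and its smallest paired p is 0.25, so these ratios are descriptions of size and direction.

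**Figure D4:**
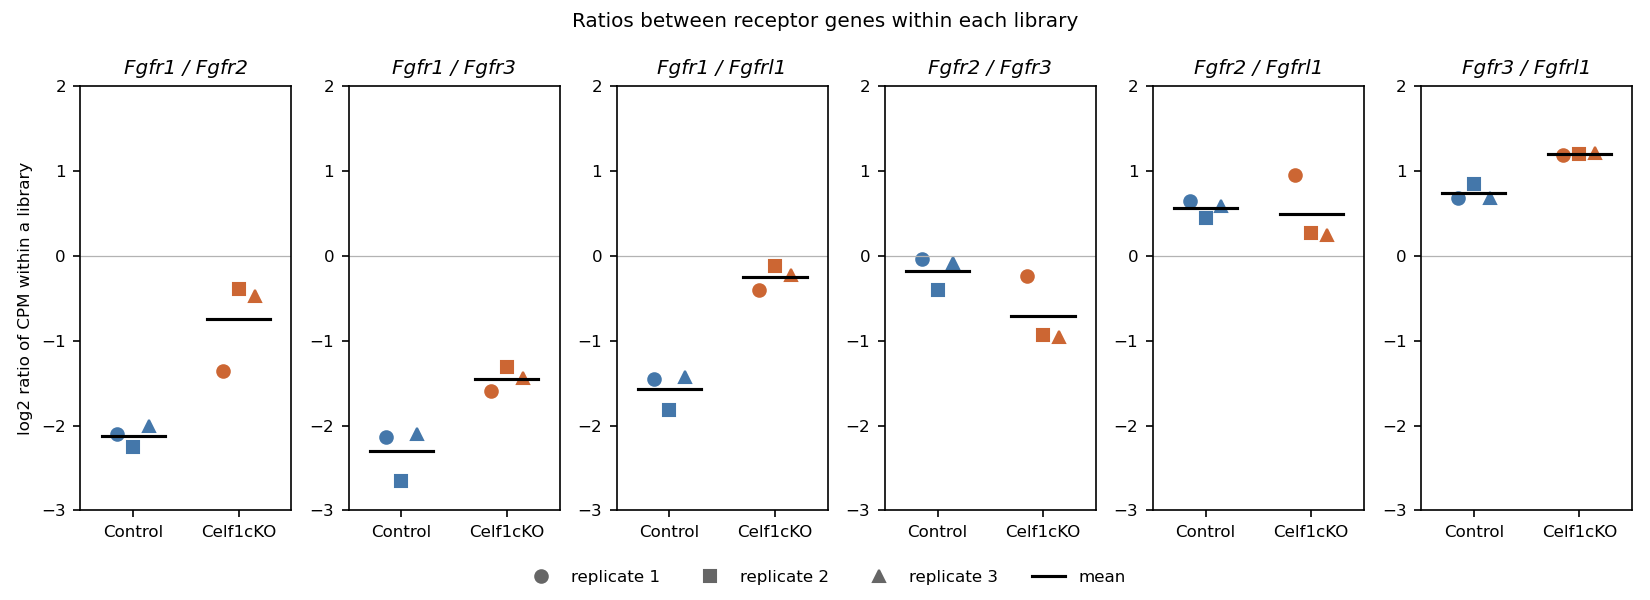
Log2 ratio of CPM (vertical axis) for the 6 pairs of receptor genes, with 1 point per library and a bar at the mean of each group. The 3 ratios of Fgfr1 to another receptor gene lie higher in every Celf1cKO library, with mean Fgfr1 to Fgfr2 at -2.12 in control and -0.74 in Celf1cKO, whereas Fgfr2 to Fgfrl1 overlaps at 0.56 and 0.49.

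Markers of the lens epithelium, as a sum, were also lower in each Celf1cKO library. The summed level of 8 epithelial markers was 1337, 1390 and 1274 CPM in control and 1126, 632.1 and 863.3 CPM in Celf1cKO libraries, and the median of their log2 fold-changes was -1.22. Foxe3, Pdgfra and Igfbp7 were called lower and Ccnd2 higher. Fgfr2 stood at 371.9, 396 and 362.8 CPM in control and at 215, 144.9 and 143.3 CPM in Celf1cKO libraries, so that Celf1cKO library 1 was the highest of its group in both measures. For Fgfrl1 and Fgfr3, by contrast, Celf1cKO library 1 was the lowest of its group, at 6.79 and 7.98 log2 CPM. The 6 vessel markers summed to 85.2 to 102 CPM in control and 21.7 to 100 CPM in Celf1cKO libraries, a median difference of -1.2 on the log2 scale, and none was called. In such bulk samples fewer cells of a type and less RNA per cell cannot be told apart, and the part of the epithelial and vessel markers in the differences of the receptor genes was not tested.

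Markers of other tissues near the lens were low in both groups, and none of them was called. Of 8 retina markers 5 were in the table, without Crx, Pou4f2 and Nrl, and they summed to 3.28 to 24.7 CPM in control and 2 to 17.3 CPM in Celf1cKO libraries. Of 6 markers of retinal pigment epithelium and melanocytes, 5 (without Rpe65) summed to 3.58 to 22 and 6.78 to 26.9 CPM. Of 5 mesenchyme markers 3 were in the table, without Dcn and Lum, at 10.8 to 13 and 2.43 to 9.13 CPM, and of 5 leukocyte markers 4, without Ptprc, at 2.72 to 7.16 and 3.83 to 6.31 CPM. Of the 6 cornea and skin markers Krt10 alone was present, at 3.86 to 4.33 and 3.38 to 3.7 CPM, and of the 5 blood markers Alas2 alone, at 0.431 to 1.35 and 0.0412 to 0.489 CPM.

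Of a list of 70 other FGF pathway genes 58 were in the table, and 5 of them were called, 4 higher and 1 lower, which is near the 7.39% of all genes called. Their median log2 fold-change was -0.0636. Fgf1, a ligand that can bind every FGF receptor, fell from 2.64, 2.38 and 2.18 log2 CPM in control to 1.02, -0.17 and 0.997 in Celf1cKO libraries, a log2 fold-change of -1.78 (SE 0.355, adjusted p = 0.0232, limma). Flrt2, a transmembrane protein of a family that can bind FGF receptors, rose from 7.22 to 7.89 (0.68, adjusted p = 0.0378, limma). Gab2, a docking adaptor downstream of Frs2 and Grb2, rose from 3.88 to 4.99 (1.11, adjusted p = 0.0192, limma). Sdc1, a heparan sulfate proteoglycan of the cell surface, rose from 5.87 to 6.65 (0.79, adjusted p = 0.0162, limma). Spred3, the third gene of the Spred family, stood at 2.99, 1.69 and 2.71 in control and at 3.60, 3.99 and 3.60 in Celf1cKO libraries (1.27, adjusted p = 0.0493, limma), and its call was lost with the replicate block (adjusted p = 0.0525). None of these 5 calls was kept without control library 2, without Celf1cKO library 3 or without the variance trend.

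By role, 1 gene was called among each of 5 ligands, 5 receptors and coreceptors, 16 adaptors and signal transducers, 9 further inhibitors and feedback genes and 23 heparan sulfate genes in the table. The median log2 fold-changes of these groups were -0.379, -0.213, -0.0259, -0.0424 and -0.252 in the same order, beside -0.0352 for all genes. The other ligands in the table were not called. Fgf12 had 1637 reads in control library 1 and 132 to 686 in the other 5 libraries, and its difference of 0.18 had an adjusted p of 0.912. Fgf13, like Fgf12 a member that acts within cells, differed by -1.44 (adjusted p = 0.114, limma). Fgf9 had 1 to 14 reads and Fgf15 had 2 to 79 reads per library, with library 3 the highest of both groups for both genes, and neither passed the test (adjusted p = 0.787 and 0.934, limma). Fgfr4 was not analysed here.

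Some further genes of the list are named here with their values already known, outside the rule for naming genes. Grb2 (0.44, adjusted p = 0.0174, limma), Sos1 (0.50, adjusted p = 0.0437) and Glce, an enzyme of heparan sulfate synthesis (0.57, adjusted p = 0.0164), were higher in all Celf1cKO libraries but short of the fold-change threshold. Flrt1 (-1.58, adjusted p = 0.0355, limma) was lower in all Celf1cKO libraries but below the expression threshold. Besides Spry4, further genes known to be induced by FGF signalling, chosen with their values known, had log2 fold-changes of -0.06 for Dusp6 (adjusted p = 0.920), -0.01 for Etv5 (adjusted p = 0.981), -0.03 for Etv1 (adjusted p = 0.882) and 1.36 for Etv4 (adjusted p = 0.0668), and none of these 4 was called. Etv4 was called in 3 of 15 alternatives, namely with total-count scaling (1.58, adjusted p = 0.0345), with quantile normalization (1.49, adjusted p = 0.0477) and without Celf1cKO library 1 (1.67, adjusted p = 0.0255). It did not overlap between the groups, at 213, 561 and 386 reads against 165, 69 and 128.

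**Figure D5:**
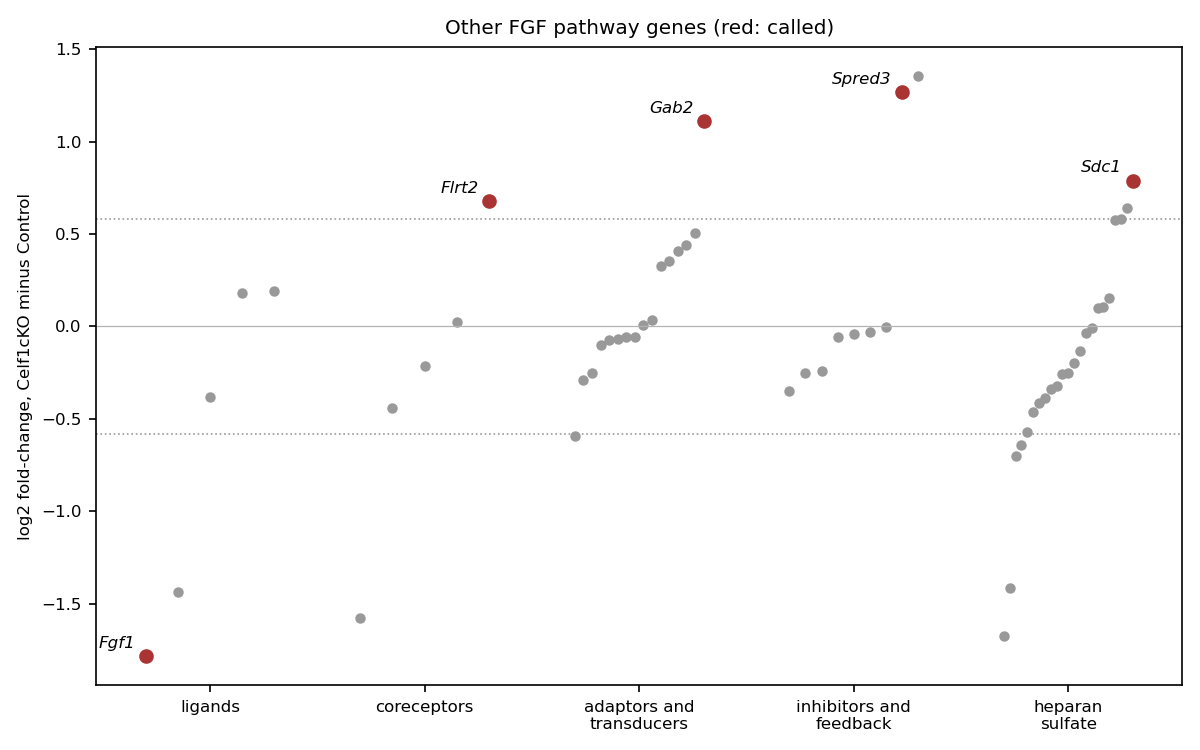
Log2 fold-change, Celf1cKO minus control (vertical axis), of the 58 other FGF pathway genes in the table, grouped by role, with 1 point per gene, the called genes named and dotted lines at the fold-change threshold of 0.58. Fgf1 lies lowest at -1.78, and Spred3 at 1.27, Gab2 at 1.11, Sdc1 at 0.79 and Flrt2 at 0.68 lie above the threshold, while some genes that were not called, such as Etv4 at 1.36, lie as far out.

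The genes whose profile over the 6 libraries was most like that of a called gene were found by the root mean square difference of centred log2 CPM values, as a description. For Fgfr2 these were Msx2, at 0.057, Zbtb7b, at 0.0731, and Ube2o, at 0.0758. For Fgfrl1 they were Lrrc4, at 0.0549, Dnmbp, at 0.112, and Lrrc75b, at 0.115. Fgfr3 was nearest to B3gntl1, at 0.0705, Zfp758, at 0.0753, and Zfp775, at 0.0775. Spry4, with far fewer reads, had more distant neighbours, namely Ccne1 at 0.169, Tceanc at 0.171 and Slc36a4 at 0.174.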

How the data were processed

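Lens RNA was sequenced in 3 control and 3 Celf1cKO libraries. The authors aligned reads to GRCm38.p6 with STAR 2.7.8a, kept uniquely mapped reads, counted them with featureCounts 2.0.0, filtered genes of low expression and normalized with edgeR. The strand setting of the counting is not given in the sources used here. For 13931 genes the authors deposited log2 CPM per library and their own fold-changes, F scores, p-values and FDR, of which their average log2 CPM alone was used, for the expression threshold (10640 genes passed). The F score, the p-value and the FDR of each gene and the group means that the authors deposited were not used. No per-library column was left out.

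Samples were grouped by their labels. Nothing states that the pools came from separate litters, so p-values measure the spread between these pools. Groups were compared with limma 3.58.1 (R 4.3.3) on the deposited log2 CPM, with a variance trend and no block (prior degrees of freedom 3.4), after a test on simulated data, and adjusted by Benjamini-Hochberg over all genes. Ratios were compared by exact permutation (scipy 1.17.1). Deviations from group means correlated by 0.30, 0.42 and 0.35 between same-numbered libraries and by -0.39 to 0.031 between others. Because each group was centred on its own mean, the negative values follow in part from the positive ones. The replicate block was treated as a pairing on the positive values, although the labels give replicate numbers and state no pairing. Reads, worked back from the steps of the values, were whole for 100% within 0.1 read. Gene positions and lengths came from GENCODE M21, where 13928 identifiers were found and 3 were not. Fgfr1, Fgfr3 and Spry1 share exon bases with genes on the opposite strand.

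The 10 genes, the pathway and marker lists and the alternatives were chosen with earlier results of these data known. Named were the 10 genes, the called genes and ligands of the pathway list, and for each called gene the 3 genes of most similar profile.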

Additional observations from a re-analysis of the deposited data

How the results depend on the processing

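Against the 4 of 10 FGF receptor and Sprouty genes called, 2 were called with no variance trend and 0 to 3 with 1 library left out. At an adjusted p under 0.01 Fgfrl1 alone stayed called, and beyond a log2 fold-change of 1 Fgfr2 and Fgfrl1 did. The share of all genes called at these 2 thresholds was not counted. Of the pathway list, against 5 genes called, 0 were called with no variance trend (20 at an unadjusted p under 0.05), 12 with total-count scaling and 0 to 14 with 1 library left out. The count was 0 for both lists without control library 2 or Celf1cKO library 3, and each of these fits called 1 gene in the whole table. In either fit 4 of the 10 genes had an unadjusted p under 0.05 (limma), as did 19 and 18 of the pathway genes. Without Celf1cKO library 1, 14 pathway genes were called, beside 1916 of all genes. Over all genes 1030 were called, against 421 with no variance trend, 1867 with total-count scaling and 1 to 1916 with 1 library left out. The cause of these differences in counts was not tested. Total-count scaling moved the median log2 fold-change of expressed genes from 0.00415 to 0.229 and the share of calls that were higher from 64.5% to 89.1%. It left Fgfr2 (-0.97) and Fgfrl1 (-0.90) lower and called, and Spry4 higher and called (1.22, adjusted p = 0.0178, limma). Frs2 at 0.47 then had an adjusted p of 0.035 (limma) but was short of the fold-change threshold. Fgfr1 at 0.41 had an adjusted p of 0.0649 (limma). Without Celf1cKO library 1, Fgfr1 was at 0.30 (adjusted p = 0.0493, limma), also short of the fold-change threshold.

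With the replicate block 3 of the 10 genes were called, and beside Spry4 (0.99, adjusted p = 0.0563, limma) it changed no other call among them. In the pathway list it called 6 genes, adding Plcg1 and Agrn and losing Spred3.

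Fgfr2, Fgfr3 and Fgfrl1 kept their negative sign and Spry4 its positive sign in all 15 alternatives. Directions turned for genes that were not called. Spry1 was 0.082 with total-count scaling and -0.41 to 0.20 with 1 library left out. In such fits Spry2 ranged from -0.024 to 0.18, Spred1 from -0.0013 to 0.25, Fgf9 from -0.97 to 0.31, Fgf12 from -0.51 to 1.32, Fgf15 from -0.80 to 1.23, Dusp6 from -0.34 to 0.24, Etv1 from -0.068 to 0.047 and Etv5 from -0.12 to 0.070. With total-count scaling Dusp6 was 0.17, Etv1 0.20 and Etv5 0.22. The difference in the log2 ratio of Fgfr2 to Fgfrl1 ranged from -0.30 to 0.06. Ranks by level per kilobase kept 8 of 10 places in control and 6 in Celf1cKO lenses with the longest transcript length. For genes that were not called, a change of any size inside the interval given remains compatible with the values of 3 libraries a group.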
